A study of Homo sapiens with 20 samples.

Results

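The 50 genes described here encode proteins that build ribosomes in the nucleolus, and they were followed in MM1.S cells treated with the CBP/p300 degrader dCBP-30. They were taken from a list of named genes that holds 3 core proteins of box C/D and 4 of box H/ACA small nucleolar ribonucleoproteins (snoRNPs), 4 subunits of RNA polymerases I and III, 13 processing factors of the 40S and 16 of the 60S subunit, and 10 nucleolar chaperones and other nucleolar proteins. They are 50 of the 19593 genes measured, and each gene was read from its GENCODE transcript with the most reads over all libraries. MM1.S is an established multiple myeloma line, here of genotype WT, and all groups come from this 1 line in culture. dCBP-30 is a bifunctional compound that joins a CBP/p300 ligand to a ligand of the ubiquitin ligase component CRBN. Cells received 10 nM dCBP-30 or its vehicle DMSO for 2, 6 or 24 h, with 3 libraries in each of the 6 groups, and every time point had its own DMSO libraries. 4-Thiouridine (4sU) was present in the last 1 h in all 6 groups, and another 2 libraries were made without 4sU and carry no treatment or time in their labels. After alkylation a 4sU base is sequenced as C, so a read with T>C conversions was counted as new RNA, made in the labelling hour. Libraries without 4sU hold some T>C reads too, as a background. Total reads count old and new RNA.

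Ribosome production begins with transcription of the ribosomal RNA precursor by RNA polymerase I in the nucleolus, with the 5S RNA supplied by RNA polymerase III. The precursor is modified by snoRNPs, of which the box C/D type carries the methyltransferase fibrillarin and the box H/ACA type the pseudouridine synthase dyskerin. It is then folded, cut and assembled with ribosomal proteins by a large set of processing factors, first in a shared particle around the early 40S precursor and then on separate paths to the 40S and 60S subunits. Most of these genes are expressed in every growing cell. Plasma cell tumours, which secrete large amounts of protein, depend on a high output of ribosomes.

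Reads on genes ranged from 12439665 to 18727385 in the 18 labelled libraries and T>C reads from 674886 to 1525463, or 4.71% to 8.62% of the reads, against 0.794% and 0.809% in the libraries without 4sU. Levels below are in RPM, reads per 1000000 of the library's size, which is its reads on genes times the TMM factor, a scaling factor from the bulk of genes that ran from 0.882 to 1.33. The plasma cell genes SDC1, MZB1 and SLAMF7 had medians of 1187, 1364 and 444 RPM of total reads, and MS4A1, PAX5, CD3D and LYZ, markers of B cells, T cells and myeloid cells, had medians of 0. CD3E, a T cell gene, was listed at 2.06 to 15.5 RPM. The summed level of 8 plasma cell markers moved with the treatment: it was 5035 to 6356 RPM in the DMSO libraries and 4015 to 4152 RPM under dCBP-30 at 2 h, 1525 to 1748 RPM at 6 h and 512 to 693 RPM at 24 h. The part of such a shift in the values below was not tested. The labels do not say that the 3 libraries of a group came from separate cultures, so the p-values below measure the spread between these libraries, which may be technical.

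The 50 genes together took a steady share of the reads under DMSO and a falling one under dCBP-30. Under DMSO their share of all reads was 0.768% ± 0.00972 (SD, n = 3, as for the shares that follow) after 2 h, 0.752% ± 0.0308 after 6 h and 0.753% ± 0.00949 after 24 h. Under dCBP-30 it was 0.817% ± 0.0488 after 2 h, 0.539% ± 0.0252 after 6 h and 0.315% ± 0.00362 after 24 h. Only the 2 h groups overlapped. With 3 libraries a group, 0.1 is the smallest p an exact permutation test can return, so none is given. In such bulk samples fewer cells and less RNA per cell cannot be told apart.

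The part of these reads that was new moved differently. T>C reads made up 7.19% ± 0.270 of the 50 genes' reads under DMSO at 2 h and 7.01% ± 0.398 under dCBP-30. After 6 h the values were 7.49% ± 0.215 and 3.76% ± 0.0872, and after 24 h 9.35% ± 0.348 and 6.69% ± 0.885. So the new share was lowest at 6 h under dCBP-30, in a range of 3.68% to 3.85%, and both libraries without 4sU, at 0.891% and 1.004%, lay below it. For DMSO and dCBP-30 in turn, a T>C read of the 50 genes held 2.04 ± 0.0389 and 2.01 ± 0.0458 conversions after 2 h and 2.00 ± 0.0464 and 1.93 ± 0.0722 after 6 h. After 24 h it held 2.305 ± 0.0121 and 1.398 ± 0.102 (SD, n = 3). The lower number of conversions at 24 h under dCBP-30 was shared by all genes, at 1.47 ± 0.0432 against 2.48 ± 0.0253. Without 4sU a T>C read held 0.984 conversions in the 50 genes and 0.923 in all genes (means, n = 2). The part of the lower number in the new share and the differences of T>C reads at 24 h was not tested.

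**Figure D1:**
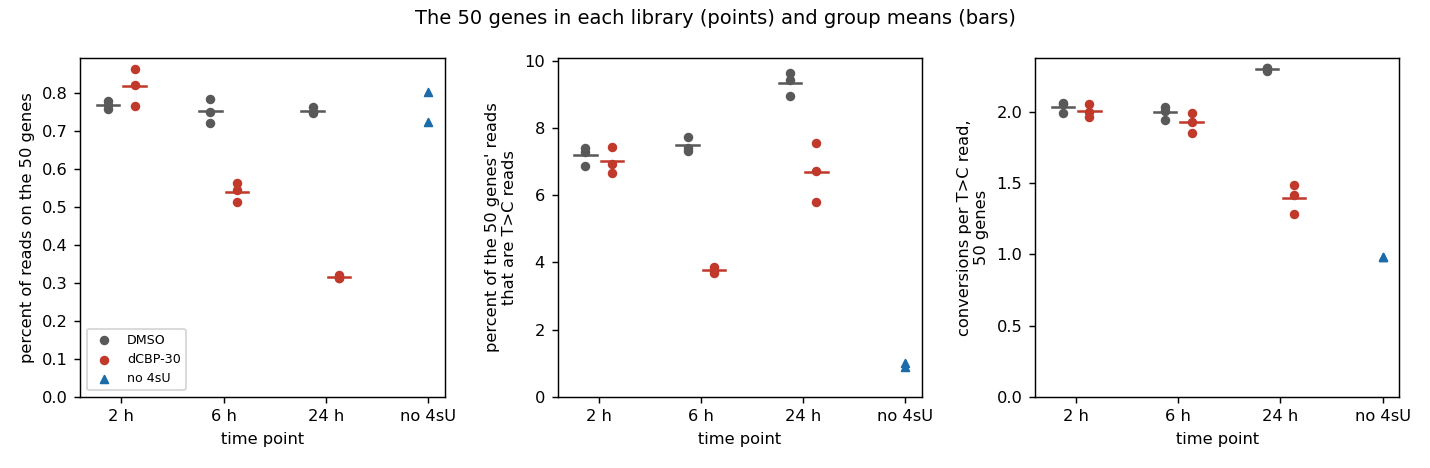
Share of all reads on the 50 genes (left, percent), share of their reads that are T>C reads (middle, percent) and conversions per T>C read over the 50 genes (right), for DMSO and dCBP-30 at 2, 6 and 24 h and for the libraries without 4sU. Points are libraries and bars are group means. At 6 and 24 h the dCBP-30 libraries lie below the DMSO libraries of the same time in the left and middle panels, and in the right panel all do so at 24 h, with overlap at 6 h.

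New RNA of these genes passed no test at 2 h and fell broadly at 6 and 24 h. With edgeR's quasi-likelihood test, fitted to the 18 labelled libraries and adjusted by Benjamini-Hochberg over all 10083 genes tested, a gene was called at an adjusted p under 0.05 and a change beyond 2-fold. UTP4 had too few T>C reads to enter the test, so 49 of the 50 were tested. At 2 h, 0 of the 49 were called lower and 0 higher, against 7.14% and 1.66% of all genes tested, and 3 were lower and 0 higher at an unadjusted p under 0.05 (DESeq2 also called 0). At 6 h, 42 were called lower, against 17.1% of all genes, and 0 higher, against 2.36%. At 24 h, 46 were called lower, against 31.2% of all genes, and 0 higher, against 2.18%. At neither later time was any member higher at an unadjusted p under 0.05.

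Over the 49 genes the log2 fold changes of T>C reads had medians of -0.06 (2 h), -1.78 (6 h) and -2.32 (24 h), beside 0.05, -0.27 and -0.69 for all genes tested. It was unmoved when POLR3G, which had 0 T>C reads in the treated libraries of 6 and 24 h, was set to its bound. Scaling moved members and all genes alike. When T>C reads themselves set the library size, the median of all genes was 0.04 at 6 h, and the median of the members minus that of all genes was -1.49, as against -1.51 with the main scaling. At 24 h this difference was -1.60 and -1.63. Because all values move up under this scaling, 33 of 48 members tested were called lower at 6 h and 38 at 24 h. Among all genes it gave 1180 lower and 520 higher calls at 6 h in place of 1720 and 238, and at 24 h it gave 1450 and 808 in place of 3147 and 220.

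The libraries can also be compared with no model. At 6 h all treated libraries were under all controls in T>C reads of 45 of the 49 genes, a pattern that 28.2% of all genes tested showed. At 24 h it held for 46, against 45.8% of all genes, and at 2 h for 3, against 14.6%. The 3 at 2 h were NOC4L, TSR1 and NOP16, and in another 4, WDR43, DDX10, RRP12 and NOP2, all treated libraries lay above all controls then, against 11.6% of all genes. The groups overlapped at 6 h in NOP10, NOC4L, RRP1B and BOP1, and at 24 h in NOP10, NOC4L and RRP9.

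**Figure D2:**
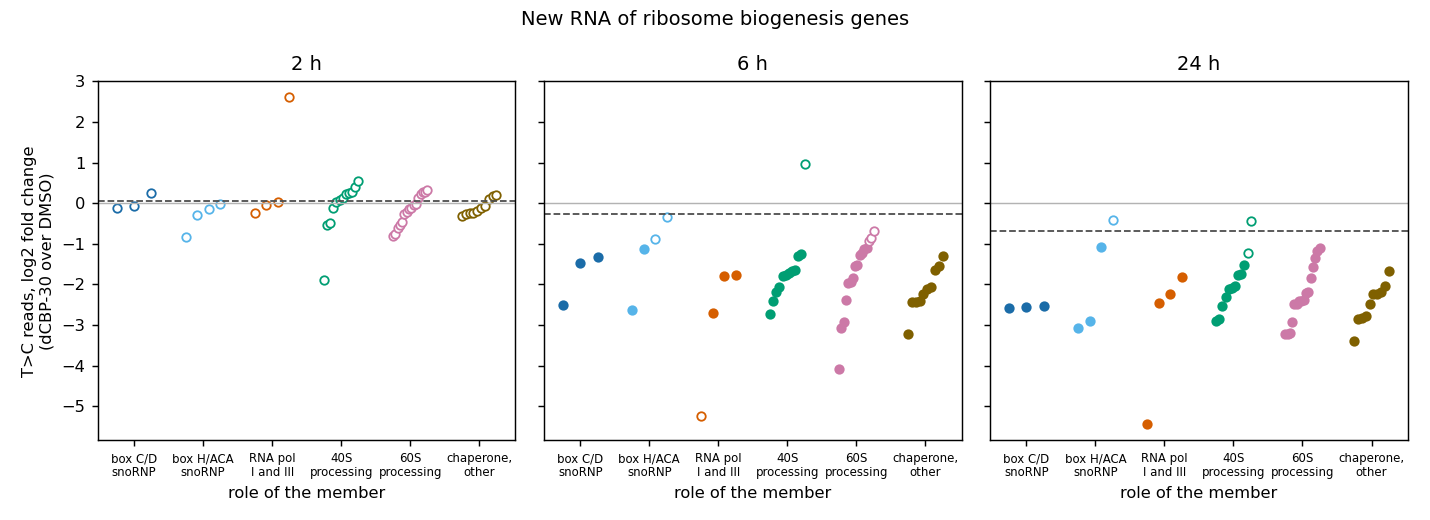
Log2 fold change of T>C reads (dCBP-30 over DMSO) at 2, 6 and 24 h for the members of each role. Each point is a gene, filled where it was called lower and open where it was not, and the dashed line is the median of all genes tested (0.05, -0.27 and -0.69). Points lie around the line at 2 h and mostly below it at 6 and 24 h. The lowest polymerase point at 6 and at 24 h is POLR3G, with no T>C read in the treated libraries, so its height depends on the fit.

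Promoters of 4 members are printed because they show how the members differ in the letters around their start sites: DDX21 and WDR43 carry a CACGTG word and are among the members with the largest drop of T>C reads at 6 h, with log2 fold changes of -3.22 and -2.74, FBL carries every motif searched, and NOP16, with the lowest 6 h value of the members averaging 20 or more T>C reads in whichever arm was higher, carries no CACGTG. These 4 were chosen after their values were seen. NOP10 also carries CACGTG, with the highest 6 h value of the members averaging 20 or more T>C reads in whichever arm was higher, -0.33. The sequences are RefSeq windows of GRCh38.p14, 5′ to 3′ on the strand of the gene, from 250 bases before the start to 30 after it, with the letters CACGTG (an E-box), CCAAT and CCGGAAG (an ETS word), on either strand, in capitals. They lie at chr10:68956397-68956676 on the plus strand for DDX21, chr2:28894417-28894696 on the plus strand for WDR43, chr19:39846350-39846629 on the minus strand for FBL and chr5:176388569-176388848 on the minus strand for NOP16. DDX21 has another window, not printed, which holds CCGGAAG and no CACGTG.
DDX21: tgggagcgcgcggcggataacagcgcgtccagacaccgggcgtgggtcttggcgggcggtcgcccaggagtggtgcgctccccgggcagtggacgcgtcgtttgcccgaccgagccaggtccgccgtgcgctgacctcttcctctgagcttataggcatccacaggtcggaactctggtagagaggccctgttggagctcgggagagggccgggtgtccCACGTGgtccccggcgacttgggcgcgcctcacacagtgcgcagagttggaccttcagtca
WDR43: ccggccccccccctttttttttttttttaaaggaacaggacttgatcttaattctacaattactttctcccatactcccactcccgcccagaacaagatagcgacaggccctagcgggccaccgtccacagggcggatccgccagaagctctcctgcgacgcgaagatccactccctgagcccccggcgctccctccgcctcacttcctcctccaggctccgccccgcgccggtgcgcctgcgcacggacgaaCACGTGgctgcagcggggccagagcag
FBL: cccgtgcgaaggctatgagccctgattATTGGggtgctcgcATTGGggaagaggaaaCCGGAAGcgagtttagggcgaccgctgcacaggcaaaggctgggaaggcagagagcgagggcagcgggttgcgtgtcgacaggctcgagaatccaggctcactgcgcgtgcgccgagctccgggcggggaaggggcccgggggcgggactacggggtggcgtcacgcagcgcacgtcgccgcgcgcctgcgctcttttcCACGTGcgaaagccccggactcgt
NOP16: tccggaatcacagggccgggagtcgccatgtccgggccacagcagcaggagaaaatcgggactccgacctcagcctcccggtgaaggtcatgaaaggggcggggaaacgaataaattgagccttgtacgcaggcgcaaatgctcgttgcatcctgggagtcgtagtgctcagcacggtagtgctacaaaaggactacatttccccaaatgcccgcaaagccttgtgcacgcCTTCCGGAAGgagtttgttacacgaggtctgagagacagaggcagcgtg

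The E-box and ETS words had higher shares in these promoters than in promoters at large, as they had in those of other ribosome biogenesis genes, and CCAAT had about the same share in all. RefSeq windows of 300 bases, 250 before to 50 after the start, matched 42 of the 50 genes by symbol, with 51 windows in all, and BOP1, DDX18, NOLC1, NOP58, POLR3G, RRP12, RRP1B and RRS1 had no entry. CACGTG, which reads the same on both strands, was in 18 of the 51 windows (35.3%), in 9.71% of the 11916 windows of genes tested for T>C reads and in 7.26% of all 35116 windows. CCAAT or its complement ATTGG was in 18 windows (35.3%), beside 35.8% and 34.6%, and CCGGAAG or CTTCCGG in 18 (35.3%), beside 18.6% and 10.3%. In 149 windows of 127 other ribosome biogenesis genes the shares were 26.2% for CACGTG, 36.2% for CCAAT and 38.9% for CCGGAAG. In the 4 windows printed, CACGTG begins 31 bases before the start of DDX21 and at base 4 after the start of WDR43 and base 7 of FBL. Members with and without the E-box word had like values of T>C reads: the median log2 fold change at 6 h was -1.94 over 17 tested genes with it and -1.69 over 24 without it, and at 24 h -2.24 in both sets. These are descriptions of letters in a window, with no test.

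NCL and NPM1, the most abundant nucleolar chaperones, fell in new RNA at 6 h and stayed low at 24 h. Nucleolin (NCL, ENSG00000115053, 3′ UTR at chr2:231453531-231455190 of hg38) binds the ribosomal RNA precursor and acts in its transcription and early cutting. In T>C reads it had 35.7, 35.1 and 27.7 RPM under DMSO and 28.5, 26.9 and 26.4 under dCBP-30 at 2 h, with overlap. By 6 h it had 17.5, 31.9 and 28.9 against 6.93, 7.31 and 4.43 RPM, and by 24 h 37.5, 39.9 and 37.7 against 5.74, 7.01 and 7.96. All treated libraries lay below all controls at both later times, by log2 fold changes of -2.07 (SE 0.21, adjusted p = 3.8e-12) and -2.47 (SE 0.21, adjusted p = 4.8e-15). Its total reads fell later, from 443, 463 and 413 to 103, 103 and 106 RPM at 24 h, or -2.08 (SE 0.11, adjusted p = 1.9e-14), while the 6 h value of -0.64 did not reach 2-fold.

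Nucleophosmin (NPM1), a histone and assembly chaperone of the granular nucleolus, had 70.9, 60.4 and 48.3 RPM of T>C reads under DMSO and 53.3, 48.2 and 65.0 under dCBP-30 at 2 h. At 6 h the values were 41.6, 57.1 and 50.5 and 20.5, 22.5 and 17.7 RPM, and at 24 h 52.6, 65.7 and 67.9 and 19.2, 18.3 and 21.4. Both later contrasts were called, at -1.30 (SE 0.17, adjusted p = 8.3e-09) and -1.66 (SE 0.17, adjusted p = 4.3e-12), but they were the smallest changes among the chaperones and came to -0.98 at each time under scaling by T>C reads, short of 2-fold. Total reads of NPM1 overlapped at 6 h, at 788, 1221 and 1109 RPM under DMSO and 891, 786 and 498 under dCBP-30. Of its reads, 52.5% were counted as multimapped in the files, so NPM1 is uncertain as a single locus.

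GNL3 (nucleostemin), a nucleolar GTP-binding protein of proliferating cells, had 19.0, 13.7 and 10.3 RPM of T>C reads under DMSO and 11.4, 9.73 and 13.4 under dCBP-30 at 2 h. It fell at 6 h from 16.5, 11.013 and 9.13 to 2.37, 2.69 and 2.61 RPM, and at 24 h from 13.6, 16.5 and 14.1 to 2.27, 1.90 and 1.86. The log2 fold changes were -2.25 (SE 0.28, adjusted p = 1.4e-09) and -2.87 (SE 0.28, adjusted p = 9.6e-13), with no overlap between the groups. Multimapped reads were 79.5% of its total, the highest share among the 50 genes, so its values too are uncertain as those of 1 locus. LYAR, a nucleolar zinc-finger protein, had the largest drop of the well-measured members at 24 h, from 4.49, 5.78 and 7.03 to 0.650, 0.272 and 0.690 RPM of T>C reads, or -3.40 (SE 0.48, adjusted p = 2.6e-08). Its treated libraries held only 12, 5 and 13 T>C reads there. The other members of this role, NPM3, NOLC1, GRWD1, PA2G4, MYBBP1A and DDX21, were each called lower at 6 and 24 h, with values from -3.22 (DDX21, an RNA helicase of the nucleolus) to -1.55 (GRWD1, a histone-binding WD-repeat protein) at 6 h. So at both later times all 10 genes of this role were called lower in T>C reads.

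All 3 box C/D core proteins fell at 6 and 24 h. Fibrillarin (FBL, ENSG00000105202, 3′ UTR at chr19:39834458-39834663 of hg38) is the methyltransferase of these particles. It had 18.4, 17.9 and 20.8 RPM of T>C reads under DMSO and 18.2, 18.6 and 15.6 under dCBP-30 at 2 h, with the groups interleaved. At 6 h it had 22.8, 16.3 and 21.0 against 9.72, 8.24 and 6.07, and at 24 h 25.5, 27.4 and 26.6 against 5.96, 4.46 and 3.13. The log2 fold changes were -1.32 (SE 0.22, adjusted p = 1.9e-06) and -2.55 (SE 0.23, adjusted p = 3.0e-14), and the first came to -0.996 under scaling by T>C reads and to -0.94 with DESeq2 on that scale, short of 2-fold. Only 1.98% of FBL reads were T>C reads under DMSO at 2 h, a low new share, and its total reads stood at 978, 996 and 933 RPM against 678, 678 and 699 at 6 h and 1024, 1004 and 1021 against 308, 279 and 286 at 24 h. The total change was -0.50 at 6 h, short of 2-fold, and -1.80 (SE 0.09, adjusted p = 6.8e-15) at 24 h.

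NOP56, a scaffold of the same particle, had 69.2, 75.2 and 58.2 RPM of T>C reads under DMSO and 74.2, 79.6 and 88.0 under dCBP-30 at 2 h. It went from 59.3, 66.9 and 65.0 to 22.7, 23.4 and 22.3 RPM at 6 h and from 78.8, 89.6 and 74.5 to 14.1, 12.3 and 14.1 at 24 h, or -1.48 (SE 0.15, adjusted p = 5.8e-12) and -2.58 (SE 0.16, adjusted p = 1.2e-20). Its libraries without 4sU held 351 and 461 T>C reads, 7.81% and 9.47% of its reads, the highest background of the 50 genes. The treated RPM at 6 and 24 h did not stand clearly above those without 4sU. As a share of its reads, T>C reads were 13.0% ± 1.56 and 19.8% ± 0.708 under dCBP-30 at 6 and 24 h (SD, n = 3). Multimapped reads were 20.3% of its total, so its values are uncertain as those of 1 locus. With this background subtracted the log2 fold changes were -2.26 at 6 h and -2.78 at 24 h. NOP58, the partner scaffold, had 5.86, 8.58 and 10.5 RPM under DMSO and 7.51, 7.12 and 9.23 under dCBP-30 at 2 h. At 6 h it had 12.5, 9.29 and 4.77 against 2.19, 0.879 and 1.64 and at 24 h 9.55, 8.85 and 8.25 against 1.90, 0.435 and 2.28, with changes of -2.50 (SE 0.38, adjusted p = 3.5e-07) and -2.52 (SE 0.38, adjusted p = 1.5e-07). In this role 3 of 3 genes were called lower in T>C reads at 6 h and again at 24 h, and in total reads 1 of 3 (NOP58, -1.47) at 6 h and 3 at 24 h.

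Of the box H/ACA core proteins, DKC1 and NHP2 fell while GAR1 and NOP10 were not called at 6 h. Dyskerin (DKC1, ENSG00000130826), the pseudouridine synthase, had 19.5, 19.4 and 18.4 RPM of T>C reads under DMSO and 15.9, 12.7 and 18.5 under dCBP-30 at 2 h. It had 19.7, 24.0 and 24.2 against 3.97, 3.41 and 3.64 RPM at 6 h and 30.2, 34.1 and 22.2 against 4.06, 3.21 and 4.30 at 24 h. Every treated library lay far under every control at both times, at -2.62 (SE 0.23, adjusted p = 1.0e-14) and -2.90 (SE 0.23, adjusted p = 1.5e-16). Its total reads fell as well, to 125, 97.9 and 75.0 RPM at 6 h from 267, 327 and 303, or -1.59 (SE 0.15, adjusted p = 2.8e-09), and to 59.0, 58.7 and 58.0 at 24 h from 261, 317 and 304, or -2.33 (SE 0.15, adjusted p = 1.7e-12).

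NHP2, an RNA-binding subunit, fell in T>C reads at 6 h and further at 24 h, to levels near its background. It had 6.70, 5.86 and 6.80 RPM of T>C reads under DMSO and 7.77, 6.14 and 5.20 under dCBP-30 at 2 h, 8.76, 8.89 and 6.58 and 4.21, 3.30 and 3.52 at 6 h, and 11.3, 8.08 and 8.97 and 1.41, 1.09 and 0.849 at 24 h. The log2 fold changes were -1.13 (SE 0.30, adjusted p = 0.0031) at 6 h and -3.07 (SE 0.34, adjusted p = 2.5e-11) at 24 h. At 6 h the call did not reach 2-fold under scaling by T>C reads (-0.82). Its libraries without 4sU held 48 and 50 T>C reads, and with background subtracted the changes were -1.97 and -4.15. GAR1 was at -0.89 (SE 0.36, adjusted p = 0.059) at 6 h and was called only at 24 h, at -1.08 (SE 0.34, adjusted p = 0.009). NOP10, the smallest subunit of the particle, was the member with the highest 6 h and 24 h values among those averaging 20 or more T>C reads in whichever arm was higher, here called well measured. It had 3.71, 4.38 and 3.69 RPM of T>C reads under DMSO and 3.44, 3.74 and 2.18 under dCBP-30 at 6 h, and 2.50, 4.01 and 3.95 and 1.84, 2.61 and 3.34 at 24 h, so the groups overlapped. Its values of -0.33 (SE 0.40, adjusted p = 0.62) and -0.42 (SE 0.40, adjusted p = 0.44) passed no threshold, nor did -0.82 at 2 h, which was the lowest value of any well-measured member then. NOP10 total reads overlapped too at 24 h, at 34.1, 54.5 and 59.3 RPM under DMSO and 35.8, 31.9 and 34.0 under dCBP-30, -0.54 (SE 0.26, adjusted p = 0.076).

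Of the 4 polymerase subunits, POLR1A, POLR1B and POLR1C were called lower at 6 h in both T>C reads and total reads, and POLR3G in neither. POLR1A encodes the largest subunit of RNA polymerase I. It had 4.49, 4.33 and 6.43 RPM of T>C reads under DMSO and 3.93, 4.96 and 4.03 under dCBP-30 at 2 h. At 6 h it had 7.49, 8.29 and 2.82 against 0, 1.70 and 1.09, the first treated library holding no T>C read of the gene, and at 24 h 10.6, 8.38 and 8.47 against 1.57, 2.50 and 0.903. The changes were -2.71 (SE 0.51, adjusted p = 5.1e-05) and -2.46 (SE 0.48, adjusted p = 5.5e-05). Total reads of POLR1A fell by log2 fold changes of -1.01 (SE 0.18, adjusted p = 7.3e-05) at 6 h and -1.40 (SE 0.18, adjusted p = 3.7e-07) at 24 h, and the 6 h value sat at the 2-fold limit. It missed it without dCBP-30 replicate 1 (-0.94) or DMSO replicate 2 (-0.86), with DESeq2 (-0.99), with the replicate block (-0.997) and without TMM factors (-0.69), where the 24 h value missed it too (-0.88).

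POLR1B, the second largest subunit, had 10.5, 11.9 and 6.72 RPM of T>C reads under DMSO and 7.34, 6.99 and 15.3 under dCBP-30 at 2 h. It had 9.53, 7.96 and 10.2 against 2.07, 3.46 and 2.49 at 6 h and 14.9, 15.0 and 11.8 against 1.95, 2.56 and 4.30 at 24 h, or -1.78 (SE 0.32, adjusted p = 7.5e-06) and -2.24 (SE 0.31, adjusted p = 2.4e-08). Total reads at 6 h were 39.1, 50.4 and 54.1 RPM under DMSO and 17.2, 14.8 and 16.0 under dCBP-30. So the total change at 6 h, -1.58 (SE 0.16, adjusted p = 2.3e-08), was close in size to the new one. POLR1C, a subunit shared by polymerases I and III, had 10.9, 10.0 and 4.36 RPM under DMSO and 11.6, 6.01 and 6.88 under dCBP-30 at 2 h, 8.13, 5.71 and 7.45 and 3.20, 2.14 and 0.789 at 6 h, and 8.78, 12.3 and 7.89 and 3.14, 1.58 and 3.45 at 24 h. Its T>C changes were -1.79 (SE 0.37, adjusted p = 1.2e-04) and -1.83 (SE 0.36, adjusted p = 3.1e-05), and its total changes -1.70 (SE 0.20, adjusted p = 1.2e-07) and -1.23 (SE 0.19, adjusted p = 5.6e-06). POLR1C also had the highest new share among the members other than UTP4, 23.4% of its reads under DMSO at 2 h.

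POLR3G, a subunit of RNA polymerase III found in stem and tumour cells, rests on very few T>C reads. The DMSO libraries held 6, 0 and 0 such reads after 2 h, 3, 3 and 7 after 6 h and 11, 4 and 1 after 24 h. The dCBP-30 libraries held 4, 26 and 13 after 2 h and none after 6 or 24 h. Against the limit of 3 reads over the group that a count of 0 allows, it was at least 5.05-fold lower at 6 h, where it was not called (adjusted p = 0.058), and at least 6.39-fold lower at 24 h, where it was called (adjusted p = 0.027). The 24 h call was lost without any 1 of the 3 dCBP-30 libraries at 24 h (adjusted p = 0.0716, 0.0723 and 0.0676) or without DMSO replicate 1 (0.122). Its total reads at 24 h, 4.74, 6.08 and 3.87 RPM against 1.08, 1.25 and 1.91, gave a called log2 fold change of -1.79 (SE 0.43, adjusted p = 0.001).

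Among the factors of the 40S subunit, T>C reads of 11 of the 12 tested genes were called lower at 6 h, and of 10 at 24 h. UTP20, a very large scaffold of the early processing particle, had 2.89, 2.79 and 3.62 RPM under DMSO and 2.73, 4.31 and 3.84 under dCBP-30 at 2 h. At 6 h it had 3.22, 2.79 and 3.76 against 0.711, 1.32 and 1.09 and at 24 h 4.30, 3.66 and 4.74 against 0.812, 0.870 and 1.22. No treated library reached the lowest control at either time, and the log2 fold changes were -1.64 (SE 0.45, adjusted p = 0.0039) and -2.12 (SE 0.45, adjusted p = 9.2e-05). HEATR1, which joins precursor transcription to processing, had 6.32, 3.70 and 3.70 RPM under DMSO and 4.27, 3.59 and 4.71 under dCBP-30 at 2 h. It had 8.62, 3.98 and 5.91 against 2.31, 1.70 and 1.395 at 6 h and 5.83, 6.61 and 6.39 against 1.25, 0.598 and 1.38 at 24 h. Its changes were -1.77 (SE 0.39, adjusted p = 2.3e-04) and -2.54 (SE 0.40, adjusted p = 4.4e-07), again with no overlap.

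BYSL (bystin), which acts late in 40S assembly, had 8.15, 5.58 and 7.69 RPM of T>C reads under DMSO and 7.60, 7.12 and 7.99 under dCBP-30 at 2 h. It fell from 9.25, 7.96 and 8.05 to 0.770, 2.86 and 1.09 at 6 h and from 8.33, 9.21 and 11.6 to 0.325, 1.96 and 1.59 at 24 h, by log2 fold changes of -2.40 (SE 0.38, adjusted p = 7.7e-07) and -2.90 (SE 0.39, adjusted p = 8.2e-09). Total reads of BYSL showed little spread and moved as clearly, from 76.2, 73.0 and 72.9 to 22.8, 22.6 and 18.8 RPM at 6 h and from 73.5, 72.0 and 72.5 to 13.0, 13.972 and 19.9 at 24 h. RRP12 had the highest value of the well-measured members at 2 h, with 3.50, 4.33 and 3.77 RPM under DMSO and 5.80, 4.77 and 6.32 under dCBP-30. Although those groups did not overlap, the value of 0.54 (SE 0.42, adjusted p = 0.51) passed no threshold, and RRP12 was called lower at 6 h (-2.20) and 24 h (-2.03). The others of this role that were called lower at both times, NOP14, WDR43, WDR75, IMP4, TSR1 and DDX10, ranged at 24 h from -2.85 (WDR43) to -1.53 (NOP14).

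NOC4L, RRP9 and UTP4 stood outside this pattern. RRP9, the U3 snoRNA binding protein, had 4.27, 1.46 and 1.41 RPM of T>C reads under DMSO and 0.356, 0.714 and 0.607 under dCBP-30 at 6 h, and 4.42, 1.95 and 2.01 and 1.46, 2.34 and 2.39 at 24 h. It was called lower at 6 h, -2.07 (SE 0.54, adjusted p = 0.0024), a call lost without DMSO replicate 1 of that time (-1.34, adjusted p = 0.103), and not at 24 h, -0.44 (SE 0.49, adjusted p = 0.52), where the groups overlapped. Its total reads nevertheless fell at 24 h from 51.4, 53.6 and 57.9 to 20.9, 16.9 and 16.8 RPM, -1.58 (SE 0.14, adjusted p = 7.2e-10). NOC4L, a small-subunit factor, had 7, 0 and 0 T>C reads under DMSO and 0, 12 and 5 under dCBP-30 at 6 h, and 5, 16 and 11 and 16, 0 and 0 at 24 h. Neither time was called (adjusted p = 0.71 and 0.52), and at 24 h the value turned to a called -6.43 (adjusted p = 0.0353) without dCBP-30 replicate 1, the one treated library with T>C reads. In total reads NOC4L was the sole member with every treated library above every control at 6 h, a pattern that 23.7% of all genes tested showed. It had 10.4, 12.7 and 10.6 against 14.5, 15.9 and 15.0 RPM, but 0.43 (SE 0.22, adjusted p = 0.13) was not called. For UTP4 the transcript with the most reads was barely covered, with 15, 10 and 8 total reads under DMSO and 0, 2 and 0 under dCBP-30 at 24 h. That is a ratio of 0.0506 with a 95% exact counting interval of 0.00588 to 0.198, and the called total change of -4.03 (SE 1.34, adjusted p = 0.012) turned to 0.20 when the reads of all its transcripts were summed.

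All 16 factors of the 60S subunit were called lower in T>C reads at 24 h, after 13 at 6 h. PES1, BOP1 and WDR12 form one complex needed to cut the 60S precursor. PES1 had 5.10, 7.68 and 7.46 RPM of T>C reads under DMSO and 9.99, 7.64 and 6.94 under dCBP-30 at 2 h. It had 5.74, 6.77 and 7.32 against 1.30, 3.30 and 2.18 at 6 h and 9.94, 8.73 and 8.47 against 1.57, 1.63 and 5.89 at 24 h, or -1.54 (SE 0.37, adjusted p = 7.8e-04) and -1.57 (SE 0.36, adjusted p = 2.4e-04). The 24 h value missed 2-fold under scaling by T>C reads (-0.92) and was not called by DESeq2 on that scale (-0.87, adjusted p = 0.0636). The third treated library at 24 h stood well above the other 2 and still under every control. WDR12 had 7.24, 4.75 and 7.91 RPM under DMSO and 6.66, 4.77 and 6.504 under dCBP-30 at 2 h, 5.60, 7.17 and 8.93 and 0.830, 3.08 and 1.64 at 6 h, and 8.08, 9.03 and 8.25 and 2.76, 1.63 and 1.17 at 24 h. Its changes were -1.96 (SE 0.37, adjusted p = 2.0e-05) and -2.19 (SE 0.37, adjusted p = 1.4e-06).

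BOP1 was called at 24 h alone. It had 1.68, 2.37 and 2.29 RPM of T>C reads under DMSO and 0.512, 1.24 and 1.92 under dCBP-30 at 2 h, and 3.08, 0.663 and 1.48 against 1.13, 1.21 and 0.910 at 6 h. With the 6 h groups overlapping, its value of -0.68 (SE 0.59, adjusted p = 0.47) was not called. At 24 h it had 5.71, 3.72 and 3.01 against 1.03, 0.381 and 0.212 RPM and was called at -2.92 (SE 0.62, adjusted p = 1.0e-04). Only 1.74% of its reads were T>C reads under DMSO at 2 h, the lowest share of the 50 genes, and its total reads went from 119, 110.3 and 114 to 28.8, 33.2 and 27.2 RPM at 24 h, -1.95 (SE 0.14, adjusted p = 1.4e-11). The difference between the 24 h and 6 h changes of BOP1 was -2.25 (SE 0.85, adjusted p = 0.074) and not called.

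NOP16 and PPAN had large drops at 6 h already. NOP16, a nucleolar protein of the 60S path (ENSG00000048162, 3′ UTR at chr5:176383946-176384230 of hg38), had 12.9, 15.5 and 13.0 RPM of T>C reads under DMSO and 11.8, 6.47 and 10.3 under dCBP-30 at 2 h. All treated libraries lay below all controls already then, but -0.54 (SE 0.26, adjusted p = 0.2) was not called. At 6 h it had 13.3, 20.4 and 13.0 against 1.01, 0.769 and 0.970 RPM, and at 24 h 14.9, 19.8 and 16.9 against 1.62, 2.45 and 1.49. The treated 6 h levels were close to the 1.04 ± 0.210 RPM (SD, n = 2) without 4sU. As a share of its reads, T>C reads were 5.08% ± 0.639 (SD, n = 3) under dCBP-30 at 6 h, above the 0.664% and 0.801% without 4sU. The log2 fold changes were -4.08 (SE 0.31, adjusted p = 9.5e-17) and -3.21 (SE 0.29, adjusted p = 2.6e-14). Its total reads fell from 110.5, 139 and 139.9 to 19.0, 17.6 and 17.4 RPM at 6 h and from 107, 129.995 and 119 to 8.66, 13.2 and 17.9 at 24 h, -2.85 (SE 0.18, adjusted p = 3.3e-12) and -3.16 (SE 0.19, adjusted p = 3.4e-13).

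PPAN, the human counterpart of a yeast 60S assembly factor, had 5.71, 8.30 and 11.2 RPM of T>C reads under DMSO and 6.06, 11.7 and 6.69 under dCBP-30 at 2 h. It had 13.2, 8.03 and 6.91 against 1.42, 0.549 and 1.70 at 6 h and 11.5, 13.2 and 12.8 against 3.30, 1.14 and 2.60 at 24 h. Both changes were called, -2.94 (SE 0.38, adjusted p = 3.1e-09) and -2.41 (SE 0.35, adjusted p = 6.1e-08). DDX18 and RRP1B, like BOP1, were called at 24 h (-2.49 and -1.83) and not at 6 h (-0.86 and -0.94). The rest of this role was called lower at both times, and at 24 h ranged from -3.22 (MRTO4, a relative of the ribosomal stalk protein P0) to -1.11 (NOC2L).

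**Figure D3:**
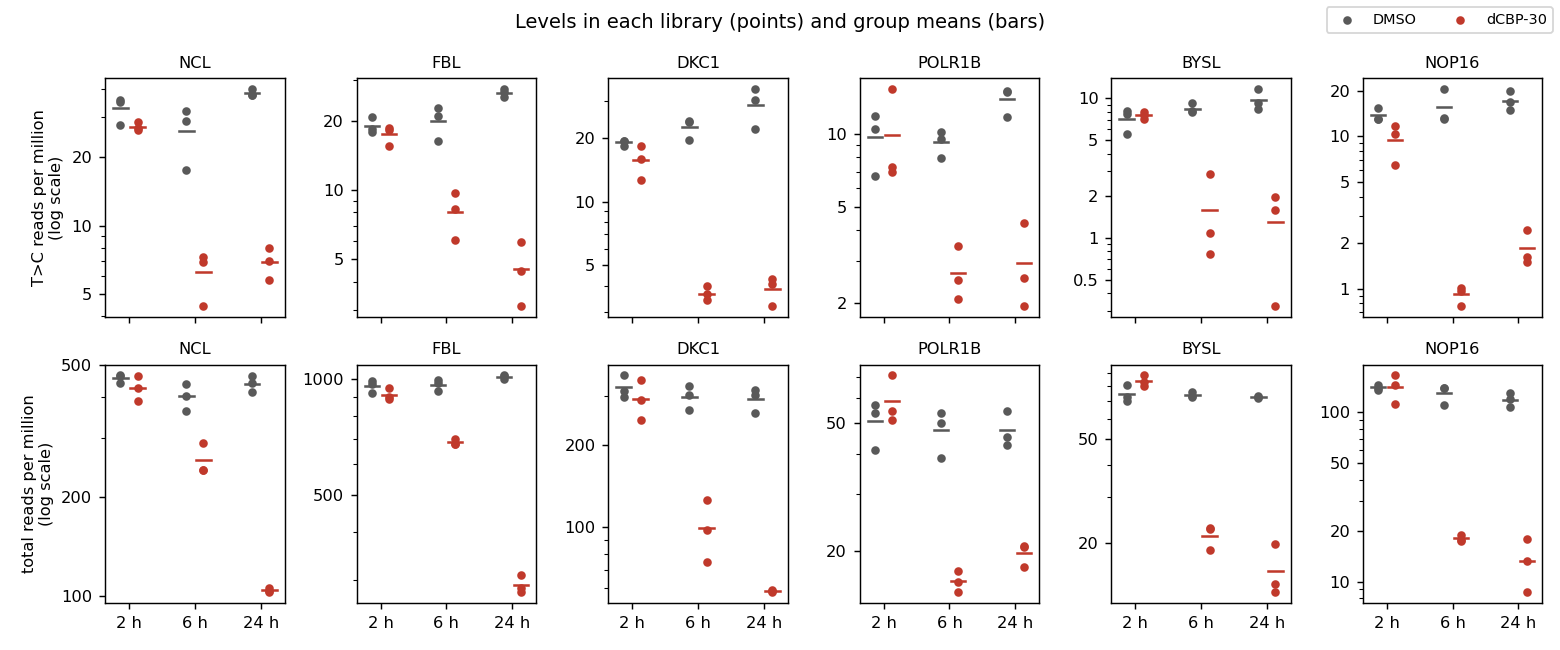
RPM of T>C reads (top) and of total reads (bottom), on log axes, of NCL, FBL, DKC1, POLR1B, BYSL and NOP16, a member of each role, in every library of DMSO and dCBP-30 at 2, 6 and 24 h. Points are libraries and bars are means of 3. In the top row the treated points lie below all control points at 6 and 24 h, and in the bottom row NCL and FBL are lowest at 24 h while POLR1B and NOP16 are low at 6 h already.

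Beyond 2-fold, total RNA fell in fewer members than new RNA at 6 h and in as many at 24 h. In total reads, where all 50 genes were tested, 0 were called lower at 2 h, against 1.25% of the 12267 genes tested, and 0 higher, against 0.457%, with 0 lower and 3 higher at an unadjusted p under 0.05 in edgeR and 0 called by DESeq2. At 6 h, 20 were called lower, against 8.67% of all genes, and at 24 h 46, against 16.1%. No member was called higher at 6 or 24 h, where 7.47% and 15.0% of all genes were, and 0 were higher at an unadjusted p under 0.05 at both times. Without the 2-fold limit this order is not seen. At the adjusted p alone, 45 members were lower in total reads at 6 h, against 21.5% of all genes, and 43 in T>C reads, against 21.3%. After 24 h there were 49 in total reads, against 29.9%, and 46 in T>C reads, against 37.1%. Median log2 fold changes of the 50 genes were 0.04, -0.88 and -1.80 at 2, 6 and 24 h, beside 0.00, 0.02 and 0.05 for all genes tested. The counts rest in part on the TMM factors. Without them 13 members were called lower at 6 h, against 5.94% of all genes tested, and 31 at 24 h, against 8.63%. The median of all genes then moved to 0.35 and 0.58, and the members' median minus it was -0.90 and -1.85, as with the factors.

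All 20 genes called lower in total reads at 6 h were among the 42 called in T>C reads then and among those called in total reads at 24 h. They were NOP58, DKC1, POLR1A, POLR1B and POLR1C, the 40S factors BYSL, DDX10, TSR1, UTP20 and WDR43, the 60S factors MRTO4, NOP16, NOP2, PPAN, RRS1 and WDR12, and DDX21, GNL3, LYAR and NOLC1. By role that is 3 of 4 polymerase subunits, 5 of 13 genes for the 40S and 6 of 16 for the 60S subunit, 4 of 10 chaperones and others, and 1 gene of each snoRNP type. WDR12 missed 2-fold without dCBP-30 replicate 1 of 6 h (-0.86), as did MRTO4 (-0.98), and GNL3 without replicate 3 (-0.99). At 24 h the 4 genes not called in total reads were NOP10 (-0.54), NOC4L (-0.91), NOC2L (-0.96) and DDX56 (-0.99). In all of them but NOP10 every treated library lay below every control, a pattern that 33.0% of all genes tested showed.

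At 6 h the change of T>C reads lay below that of total reads in 46 of 49 genes, with a median difference of -0.82 on the log2 scale, and in 71.5% of all genes tested in both, with -0.29. At 24 h it did so in 42 of the 49, with -0.43, and in 87.9% of all genes, with -0.65. These values depend on the scaling: with T>C reads as the library size, the medians of the members and of all genes were -0.49 and 0.03 after 6 h, with 38 of 48 members lower in T>C reads, and 0.25 and 0.03 after 24 h, with 15 of 48. The sign thus turned for all genes at both times and for the members at 24 h. Across the 49 genes the 2 changes had a Pearson r of 0.556 and a Spearman rho of 0.622 at 6 h, and 0.635 and 0.709 at 24 h, as a description across genes, whose T>C reads are a part of their total reads and which share all libraries.

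**Figure D4:**
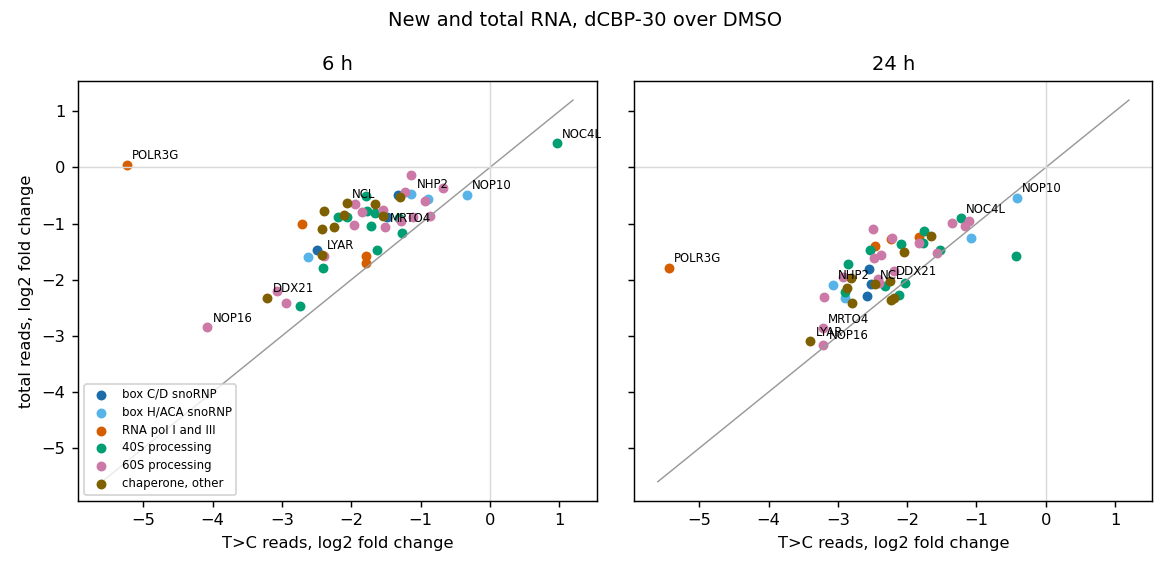
Log2 fold change of total reads against that of T>C reads (dCBP-30 over DMSO) at 6 and 24 h, one point per gene, coloured by role, with the line of equal change. At 6 h 46 of 49 points lie above the line, as do 71.5% of all genes, and at 24 h 42 do, as do 87.9% of all genes. The height above the line depends on the scaling, and with T>C reads as the library size 15 of 48 members stay above it at 24 h. POLR3G, far to the left, had no T>C read in the treated libraries of both times.

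At 6 h members with more new RNA in control cells tended to have lower total changes, with less of such an order at 24 h. The new share, T>C reads as a percent of the gene's reads under DMSO at 2 h, ran from 1.74% in BOP1 to 23.4% in POLR1C without UTP4, whose few reads gave 65.7%. Over the 49 genes its logarithm and the total change at 6 h had a Pearson r of -0.613 and a Spearman rho of -0.69, while at 24 h they were -0.106 and -0.0958. Over all 50 genes, UTP4 included, the 6 h values were -0.492 and -0.603, and those of 24 h were -0.281 and -0.149. The 10 genes with the lowest new share, BOP1, POLR3G, FBL, NPM3, NHP2, NOC4L, RRP9, NOC2L, PA2G4 and NPM1, had a median total change of -0.48 at 6 h, with 0 called lower, and of -1.80 at 24 h, with 8 called. The 10 with the highest, WDR43, GNL3, WDR75, POLR1B, NOP56, RRS1, NOC3L, NIP7, LYAR and POLR1C, had -1.31 at 6 h, with 6 called lower, and -1.50 at 24 h, with 10 called. In T>C reads the same sets had medians of -1.31 and -1.86 at 6 h and of -2.22 and -2.41 at 24 h. The new shares were not corrected for background. For NOP56, in the highest set at 19.3%, 8.67% of the reads were T>C reads without 4sU. The share of POLR3G, 1.92% ± 3.33 (SD, n = 3), rests on few T>C reads and ran from 0% to 14.9% over all DMSO libraries. So its place in the lowest set is uncertain. The DMSO libraries of 2 h that gave the share are not in the 6 and 24 h contrasts. Genes of the same libraries are not independent points, so no p is given.

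**Figure D5:**
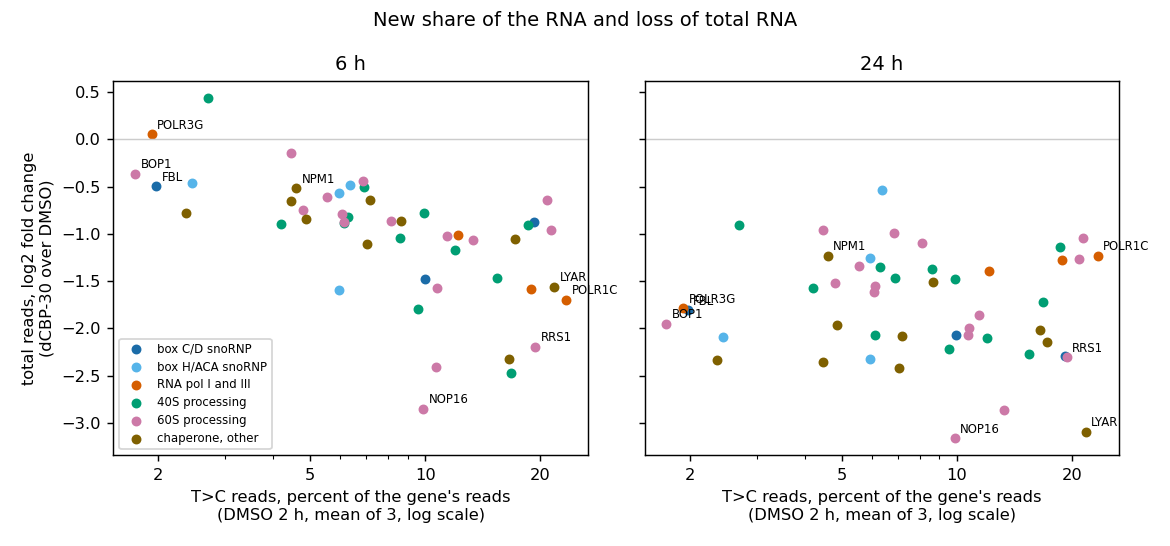
Log2 fold change of total reads (dCBP-30 over DMSO) at 6 and 24 h against the percent of each gene's reads that were T>C reads under DMSO at 2 h (mean of 3 libraries, log axis), for 49 genes without UTP4. At 6 h genes with a high new share lie lower (Spearman rho -0.69), and at 24 h there is little order (-0.0958).

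The time course was then tested directly as differences between the changes. Compared with 2 h, the T>C change was lower at 6 h in 36 genes, against 6.63% of all genes tested, and at 24 h in 40, against 21.6%, and both differences share the 2 h libraries. Between 24 and 6 h, 5 genes had a lower change at 24 h, against 8.50% of all genes: FBL (-1.23 (SE 0.31, adjusted p = 0.0037)), NOP56 (-1.10 (SE 0.22, adjusted p = 1.4e-04)), NHP2 (-1.94 (SE 0.45, adjusted p = 0.0014)), MRTO4 (-1.70 (SE 0.27, adjusted p = 3.0e-06)) and TSR1 (-1.06 (SE 0.36, adjusted p = 0.043)). So the share of members lower at 24 h than at 6 h was near that of genes at large. MRTO4 had 28.2, 29.6 and 29.2 RPM of T>C reads under DMSO and 9.90, 11.3 and 9.22 under dCBP-30 at 6 h, and 37.4, 34.2 and 34.9 and 4.01, 3.97 and 3.45 at 24 h. Its libraries without 4sU held 183 and 173 T>C reads, or 11.7 and 12.9 RPM, as high as its treated libraries at 6 h. With background subtracted its changes were -1.99 at 6 h and -3.48 at 24 h. For NOP56, 8.67% of the reads were T>C reads without 4sU. With background subtracted its changes were -2.26 and -2.78, closer together than without the subtraction, while those of NHP2 were -1.97 and -4.15. The difference between 24 and 6 h itself was not fitted with background subtracted. TSR1, a GTPase-like 40S factor, had 9.74, 13.999 and 8.32 against 5.10, 3.35 and 4.91 RPM at 6 h and 20.1, 14.6 and 16.5 against 3.20, 3.48 and 3.56 at 24 h. Under scaling by T>C reads NHP2 and MRTO4 were still called, while FBL (-0.86, adjusted p = 0.0623), NOP56 (-0.73) and TSR1 (-0.67) were not. NOP56 also missed 2-fold without TMM factors (-0.90), and the 6 h change of TSR1 itself missed it under scaling by T>C reads (-0.96). The TSR1 difference is weak in other ways, since it lost its call in 10 of the 18 fits that left out 1 library, with adjusted p of 0.0509 to 0.135, the highest without DMSO replicate 1 of 24 h. DDX21 went the other way at the adjusted p alone, 0.97 (SE 0.27, adjusted p = 0.01), having fallen further at 6 h.

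Between the DMSO libraries of 24 and 2 h, the one pair of control groups compared, 0 members were called in T>C reads, against 2.52% of all genes higher and 0.00992% lower, and 0 in total reads, against 0.0245% and 0.0326%. In edgeR's test, 6 members were higher in T>C reads and 4 lower in total reads at an unadjusted p under 0.05, and DESeq2 also called 0. Shares of all genes at an unadjusted p were not counted. At edgeR's adjusted p alone, 0 members were higher in T>C reads, against 5.5% of all genes, and 0 lower in total reads, against 0.106%. The median T>C change between these DMSO groups was 0.39 in the members and 0.49 in all genes, beside a T>C share of all reads of 6.08% ± 0.0776 after 2 h and 8.31% ± 0.266 after 24 h (SD, n = 3).

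Ribosome biogenesis genes outside the 50 were called in smaller shares. Of a list of 148 other snoRNP, polymerase, 40S, 60S and exosome genes, 142 were tested for T>C reads. At 2, 6 and 24 h, 0, 53 and 95 were called lower, beside 7.14%, 17.1% and 31.2% of all genes tested. TCOF1, which serves transcription by RNA polymerase I, was the 1 gene called higher at 2 h (1.66), and was called lower at 6 h (-2.13) and 24 h (-4.19). GTF3C1, a subunit of a polymerase III factor, was the 1 called higher at 6 h (1.17), and 0 were at 24 h. Of all genes tested, 1.66%, 2.36% and 2.18% were called higher at 2, 6 and 24 h. TCOF1 and GTF3C1 were named after their values were seen. The median log2 fold changes of the list were 0.14, -0.89 and -1.48, between those of the 50 genes and of all genes at 6 and 24 h. By role, T>C reads were called lower at 6 h in 2 of 8 other snoRNP genes and 10 of 28 polymerase genes. The same held for 20 of 46 genes for the 40S and 20 of 45 for the 60S subunit, and for 1 of 15 exosome genes. Beside the 17.1% of all genes, the exosome genes lay lower at 6 h. At 24 h the counts by role were 5, 15, 30, 34 and 11, beside 31.2% of all genes. Total reads of the list were called lower in 0, 22 and 52 of 142 genes at 2, 6 and 24 h, beside 1.25%, 8.67% and 16.1% of all genes. The 50 members were named with earlier results of these data known, so their higher share is a description and was not tested against the list.

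Some counted regions are shared with other genes. The region of NOP2 overlaps another annotated gene on its own strand, so its reads cannot be assigned to NOP2 alone. Those of NHP2, HEATR1, TSR1, NOC2L, GNL3 and MYBBP1A overlap a gene on the other strand, and whether the counting used the strand is not given in the sources used here.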

How the data were processed

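SLAM-seq libraries of MM1.S cells (3′ end sequencing after alkylation of 4sU-labelled RNA) were made for 18 labelled samples in 6 groups of 3 and for 2 samples without 4sU. Trimming by the authors used Trim Galore. They mapped and counted reads with Slamdunk over hg38 3′ UTRs and collapsed the counts per transcript, and the deposited files hold raw counts of reads and of T>C reads. The files also list multimapped reads per transcript. A Drosophila RNA spike-in was added by the authors and is not used here, so all values are relative to each library.

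Of 97466 transcript rows, 91.4% were matched to GENCODE 44, and unmatched rows held 0.0789% to 0.1987% of the reads. Each gene was read from its transcript with the most reads. T>C reads and total reads were tested with edgeR 4.0.16 in R 4.3.3 (filterByExpr with a minimum count of 10, robust quasi-likelihood fit of all 18 labelled libraries, library size times TMM factor of total reads, Benjamini-Hochberg adjustment over all genes). A gene was called at an adjusted p under 0.05 and a 2-fold change. The test was checked on simulated data. Tables and figures were made with Python 3.11.15. Alternatives were DESeq2 1.42.0, other scalings, filters, summed transcripts, subtraction of the background without 4sU, the replicate number as a block, and fits that each omit 1 library. Replicates differed by more than counting noise (chi-square per degree of freedom 8.54 to 50.1), so none was taken for a repeat of another.

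The members and lists were chosen with earlier results of these data known. Named members were a fixed set for each role, the lowest and highest T>C change at each time among members averaging 20 or more T>C reads in whichever arm was higher, and members not called at 24 h. MRTO4 and TSR1 were added for their difference between 24 and 6 h.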

Additional observations from a re-analysis of the deposited data

Results flagged for a closer look

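The effect of dCBP-30 on T>C reads differed between time points in edgeR's test of the difference itself. Of 49 genes tested, 36 had a lower change at 6 h than at 2 h, against 6.63% of all genes tested, and 40 a lower change at 24 h than at 2 h, against 21.6%. Both sets of differences use the same 2 h libraries. Between 24 and 6 h, 5 genes had a lower change at 24 h, a share near the 8.50% of all genes: FBL (-1.231), NOP56 (-1.101), NHP2 (-1.939), TSR1 (-1.056) and MRTO4 (-1.703), all on the log2 scale. Under scaling by T>C reads FBL (-0.86), NOP56 (-0.73) and TSR1 (-0.67) lost the call. Fibrillarin and NOP56 belong to the box C/D snoRNP, NHP2 to the box H/ACA snoRNP, and TSR1 and MRTO4 to the 40S and 60S paths. At 24 h the number of conversions in a T>C read was lower in the treated libraries over all genes, and its part in these differences was not tested. The differences were not fitted with background subtracted.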

How the results depend on the processing

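The counts of members called lower in T>C reads kept within 1.5 times at 6 h (33 to 43 over all alternatives other than leaving out a library) and at 24 h (38 to 46). Leaving out 1 library at a time gave 39 to 42 at 6 h, 42 to 46 at 24 h, 28 to 36 for 6 against 2 h, 38 to 43 for 24 against 2 h and 4 to 6 for 24 against 6 h, and in total reads 18 to 21 at 6 h and 45 to 47 at 24 h. For 6 against 2 h the count of 36 became 22 when libraries were scaled by their own T>C reads and 22 with reads summed over transcripts. For 24 against 6 h the count of 5 lower became 2 with own T>C scaling, 3 without TMM factors and 2 with DESeq2's size factors of T>C reads. The count of 0 higher became 2, 1 and 3 under the same settings, and 0 to 1 when leaving out 1 library. In total reads at 6 h the count of 20 became 13 without TMM factors, where 5.94% of all genes tested were called lower. The total change of UTP4 at 24 h reversed to 0.20 with reads summed over transcripts. The cause was not tested in any of these. Same-numbered dCBP-30 and DMSO libraries did not deviate together (correlations of -0.0577 to 0.0167 in T>C reads and -0.334 to 0.0964 in total reads over 9 pairs), so the numbers were not taken to pair the samples. With the replicate block, 0, 42 and 46 members were called lower in T>C reads at 2, 6 and 24 h and 0, 19 and 46 in total reads. The block lost the calls of POLR1A in total reads at 6 h (-0.997) and of TSR1 for 24 against 6 h (adjusted p = 0.0544). Depth limits NOC4L, POLR3G and UTP4, which had few T>C reads.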
